A study of Mus musculus with 12 samples.

Results

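The 10 genes described here encode the class I molecules of the mouse major histocompatibility complex and the proteins that load them with peptide. They are the heavy chain genes H2-K1, H2-D1, H2-Q4, H2-Q6, H2-Q7, H2-Q9 and H2-T23, the light chain gene B2m, and the loading genes Tap1 and Tapbp. They were taken by symbol from the 24444 gene symbols of the deposited tables, and all 10 were found. RNA was sequenced from bone marrow cells of C57BL/6 mice in 12 libraries, which fell into 4 groups of 3. The aged_WT group (replicates 1, 6 and 7) held Hopx wild-type mice and the aged_KO group (replicates 3, 9 and 10) held Hopx-knockout mice, both titled old and labelled 18 weeks. The MN1_WT group (replicates 2, 3 and 4) and the MN1_KO group (replicates 5, 7 and 8) held Hopx wild-type and Hopx-knockout mice with MN1 overexpression, labelled 16 weeks. Hopx encodes a homeodomain cofactor without DNA contact of its own, and MN1 is a transcriptional coregulator that drives myeloid leukaemia when overexpressed in mouse marrow. The labels do not give how MN1 was introduced, the nature of the Hopx allele, or the sex of the mice. The 2 groups labelled aged form 1 deposited table and the 2 MN1 groups another, so table, labelled age and MN1 status coincide.

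A class I molecule is a membrane-bound heavy chain paired with beta-2 microglobulin, and it carries a short peptide from inside the cell to the surface. Most nucleated cells make it, CD8 T cells read the peptide, and natural killer cells read whether the molecule is there. H2-K1 and H2-D1 encode the classical heavy chains, which present to CD8 T cells. H2-Q4, H2-Q6, H2-Q7 and H2-Q9 lie in the Qa region, and Qa-2 antigens come from H2-Q6 to H2-Q9. H2-T23 encodes Qa-1, the ligand of the CD94 and NKG2A receptor of natural killer cells. Tap1 encodes a subunit of the transporter that carries peptides into the endoplasmic reticulum, and Tapbp encodes tapasin, which holds the empty heavy chain beside that transporter. Interferons raise transcription of these genes through an interferon-stimulated response element (ISRE), NF-kB acts on a nearby kB site, and the coactivator NLRC5 acts with RFX and NF-Y factors on a conserved module of class I promoters.

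In the GENCODE vM21 annotation of GRCm38, 8 of the genes lie on chromosome 17 and B2m lies on chromosome 2. H2-K1 spans chr17:33996017-34000347 on the minus strand, and H2-D1 spans chr17:35262730-35267499, H2-Q4 chr17:35379617-35385290, H2-Q6 chr17:35424850-35430055 and H2-Q7 chr17:35439155-35443773 on the plus strand. H2-T23 spans chr17:36029773-36032855 on the minus strand. B2m spans chr2:122147686-122153083, Tapbp chr17:33915899-33929292 and Tap1 chr17:34187553-34197225, all on the plus strand. H2-Q9 was counted in the deposited tables and its position is not given here.

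The promoters are shown because the letters of a kB site and of an ISRE stand side by side in most of them. The RefSeq promoter table of GRCm38.p6 held 9 of the 10 genes, and the 250 bases before each RefSeq start were searched on both strands. For H2-D1 the RefSeq start lies inside the GENCODE span given above, and so does the H2-D1 window below. The kB motif was GGG, any 2 bases, TT, any base and CC. The ISRE motif was GAANNGAA or a longer form with GAAA in place of each GAA, and the CCAAT box was ATTGG. A kB match with either ISRE form within 40 bases was found in 6 of the 9 promoters, against 97 of 32851 promoters in the table (0.295%). Capitals mark the kB match and the ISRE match. H2-Q4 held 2 overlapping kB matches, 1 base apart, and its capitals mark the second (positions -173 to -164 from the start). Every sequence runs 5′ to 3′ along the gene's own strand. The windows are chr17:34000423-34000464 on the minus strand for H2-K1, chr17:35262917-35262958 for H2-D1, chr17:35379438-35379478 for H2-Q4, chr17:35424671-35424712 for H2-Q6, chr17:35439016-35439056 for H2-Q7 and chr2:122147542-122147576 for B2m, on the plus strand for all but H2-K1.
H2-K1: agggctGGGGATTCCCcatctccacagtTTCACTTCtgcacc
H2-D1: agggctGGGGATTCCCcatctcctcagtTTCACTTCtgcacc
H2-Q4: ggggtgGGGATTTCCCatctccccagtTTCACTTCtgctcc
H2-Q6: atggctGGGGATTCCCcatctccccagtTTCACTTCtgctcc
H2-Q7: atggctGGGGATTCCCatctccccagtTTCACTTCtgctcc
B2m: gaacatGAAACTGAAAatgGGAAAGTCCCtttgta

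In the 5 heavy chain genes the kB match came first and TTCACTTC, the ISRE letters read on the other strand, followed after 12 bases in H2-K1, H2-D1 and H2-Q6 and after 11 bases in H2-Q4 and H2-Q7. In B2m the order was turned round, with the ISRE match first and the kB match, read on the other strand, 3 bases after it. The H2-D1 window was identical to that of H2-K1 at 41 of 42 positions, with the substitution A24T counted from 1 at the 5′ end of the window. The H2-Q6 window matched H2-K1 at 39 of 42 positions (G2T, A24C and A40T). The H2-T23 promoter held the longer ISRE form once and no kB match. No kB or ISRE match was found in the 250 bases before Tap1 or Tapbp. CCAAT letters were present once or more in all 9 promoters. Alone, the kB letters occurred in 4.11% of all promoters, the short ISRE form in 17.2%, the longer form in 2.98% and the CCAAT letters in 33.8%. These matches describe the letters in the windows only.

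Sequence likeness also bears on how well reads can be assigned to a gene. In coding sequence, H2-Q6 and H2-Q7 were identical at 95.4% of aligned bases, H2-K1 and H2-D1 at 91.5%, and H2-K1 and H2-T23 at 82.8%. Windows were taken from the transcript with the longest coding sequence of each gene. H2-Q9 is not named in the annotation searched, so windows shared with it may be missed. Of the 50-base windows of H2-Q7, 40.2% also occurred in another gene. The share was 32.0% for H2-Q6, 28.8% for H2-T23, 24.3% for H2-Q4, 14.3% for H2-D1, 8.79% for H2-K1 and 0% for B2m. With 100-base windows the shares were 21.9% for H2-Q7, 10.8% for H2-Q6 and 0% for H2-K1. The deposited values are expected counts, in which a read that fits several genes is divided among them. H2-K1, H2-D1, H2-Q7, H2-Q9 and H2-T23 had expected counts that were not whole in 12 of 12 libraries, and B2m in 0 of 12. H2-Q6 was listed at 0 in all 12 libraries, where 3 counts would be 0.106 to 0.181 CPM (counts scaled to a common library total). Whether H2-Q6 reads were assigned to its near-identical neighbours was not tested, so values of single Qa genes are uncertain.

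Library totals ran from 16544407 to 28409046 counts. The members' counts made up 0.328 to 0.715% of a library. Hopx stood at 14.2, 33.6 and 15.3 CPM in aged_WT and at 0, 0 and 0.121 CPM in aged_KO. In the MN1 experiment Hopx lay between 14.1 and 27.9 CPM in MN1_WT and between 2.92 and 3.51 CPM in MN1_KO, so the knockout libraries there were lower without being empty. In MN1_WT replicates 2, 3 and 4 the Mn1 level was 0.395, 36.4 and 0.160 CPM. It was 47.3, 46.3 and 22.1 CPM in MN1_KO replicates 5, 7 and 8. MN1_WT replicates 2 and 4 therefore had no more Mn1 than the aged_WT libraries (0.456 to 1.18 CPM), against their label. The members' fold changes, the calls and the ratios that rest on them are also given without both. Whether the introduced MN1 would be counted under this mouse gene is not given in the labels.

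Of the 10 members, 9 were detected in every library. Compared per transcript length as TPM, B2m was the most abundant in aged_WT at 3381 ± 601 TPM (SD, n = 3). H2-D1 followed at 1799 ± 156 TPM and H2-K1 at 1077 ± 98.3 TPM, so the classical heavy chains stood well above the others. H2-T23 was at 365 ± 5.75 TPM and H2-Q4 at 152 ± 28.7 TPM (SD, n = 3 for both). The loading genes were lower, at 106 ± 5.08 TPM for Tapbp and 82.3 ± 14.9 TPM for Tap1. H2-Q9 stood at 76.7 ± 8.20 TPM and H2-Q7 at 59.6 ± 9.67 TPM. In that order Tap1 and H2-Q9 overlapped between libraries, as did H2-Q9 and H2-Q7, and each of the other neighbours did not. H2-K1 and H2-D1 together supplied most heavy chain transcripts in every library: in aged_WT replicate 1, for example, 30.4% of summed heavy chain TPM was H2-K1 and 51.4% was H2-D1.

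In marrow without MN1, class I transcripts were lower in Hopx-knockout mice. Of the 9 members tested, 7 fell in aged_KO against aged_WT and none rose, with a median log2 fold change of -0.74 over the members against -0.02 over all genes tested. The 3 detected H2-Q genes had the largest fold changes, with H2-Q9 lower by 4.56-fold, H2-Q7 by 4.11-fold and H2-Q4 by 2.36-fold. H2-D1 and Tapbp did not pass the threshold. The background was high: edgeR called 31.4% of 12771 genes in this comparison, 15.8% lower and 15.6% higher, at an adjusted p below 0.05. All 9 members had lower TMM-scaled CPM in every aged_KO library than in any aged_WT library, a pattern that 25% of all genes tested showed. In whole marrow, fewer cells that carry a transcript and less of it per cell cannot be told apart.

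Among the classical heavy chains, H2-K1 stood at 1339, 1110 and 1212 CPM in aged_WT replicates 1, 6 and 7 and at 566, 494 and 528 CPM in aged_KO replicates 3, 9 and 10. The groups were far apart, and H2-K1 fell 2.04-fold (log2 fold change -1.03 ± 0.13 SE, edgeR adjusted p = 0.00086). H2-D1 stood at 2393, 2031 and 2048 CPM in aged_WT and at 1434, 1538 and 1388 CPM in aged_KO. Its groups did not overlap either, but the difference was small on the TMM scale (-0.39 ± 0.14 SE) and missed the threshold (edgeR adjusted p = 0.0668). It passed when libraries were scaled by their totals (-0.57, adjusted p = 0.00621) and with DESeq2 (-0.37, adjusted p = 0.0219).

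The H2-Q genes showed the widest separation. H2-Q9 was at 84.9, 70.6 and 84.5 CPM in aged_WT and at 19.9, 13.1 and 13.8 CPM in aged_KO (log2 fold change -2.19 ± 0.15 SE, edgeR adjusted p = 0.000121). H2-Q7 was at 57.3, 47.2 and 40.8 CPM against 15.1, 8.37 and 8.17 CPM (-2.04 ± 0.23 SE, edgeR adjusted p = 0.000914). For both genes aged_KO replicate 3 was the highest of its group and still below every wild-type library. H2-Q4 was at 223, 151 and 193 CPM in aged_WT and at 77.1, 66.4 and 68.9 CPM in aged_KO (-1.24 ± 0.14 SE, edgeR adjusted p = 0.000781). H2-T23, whose product Qa-1 holds natural killer cells in check, moved less. Its libraries were at 335, 323 and 323 CPM in aged_WT and at 194, 203 and 187 CPM in aged_KO, a 1.48-fold fall (-0.57 ± 0.11 SE, edgeR adjusted p = 0.00525). That call was lost when all 12 libraries set the spread (adjusted p = 0.111).

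B2m, the light chain that class I heavy chains need to reach the surface, was at 2319, 1749 and 1658 CPM in aged_WT and at 1110, 1061 and 867 CPM in aged_KO. It fell 1.67-fold (-0.74 ± 0.18 SE, edgeR adjusted p = 0.0131), with aged_WT replicate 1 well above the other wild-type libraries. Tap1 was at 207, 147 and 159 CPM in aged_WT and at 101, 91.1 and 80.5 CPM in aged_KO, which was also a 1.67-fold fall (-0.74 ± 0.15 SE, edgeR adjusted p = 0.00686). The tapasin gene Tapbp differed least, at 195, 210 and 208 CPM against 169, 156 and 136 CPM (-0.23 ± 0.11 SE, edgeR adjusted p = 0.136, 95% interval -0.47 to 0.02). Scaled by library totals, Tapbp passed as well (-0.41, adjusted p = 0.0155), so that all 9 passed on that scale. Scaling by totals moved the median of all genes in this comparison from -0.02 to -0.20, and the calls over all genes from 1987 higher and 2021 lower to 1046 higher and 3381 lower.

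**Figure D1:**
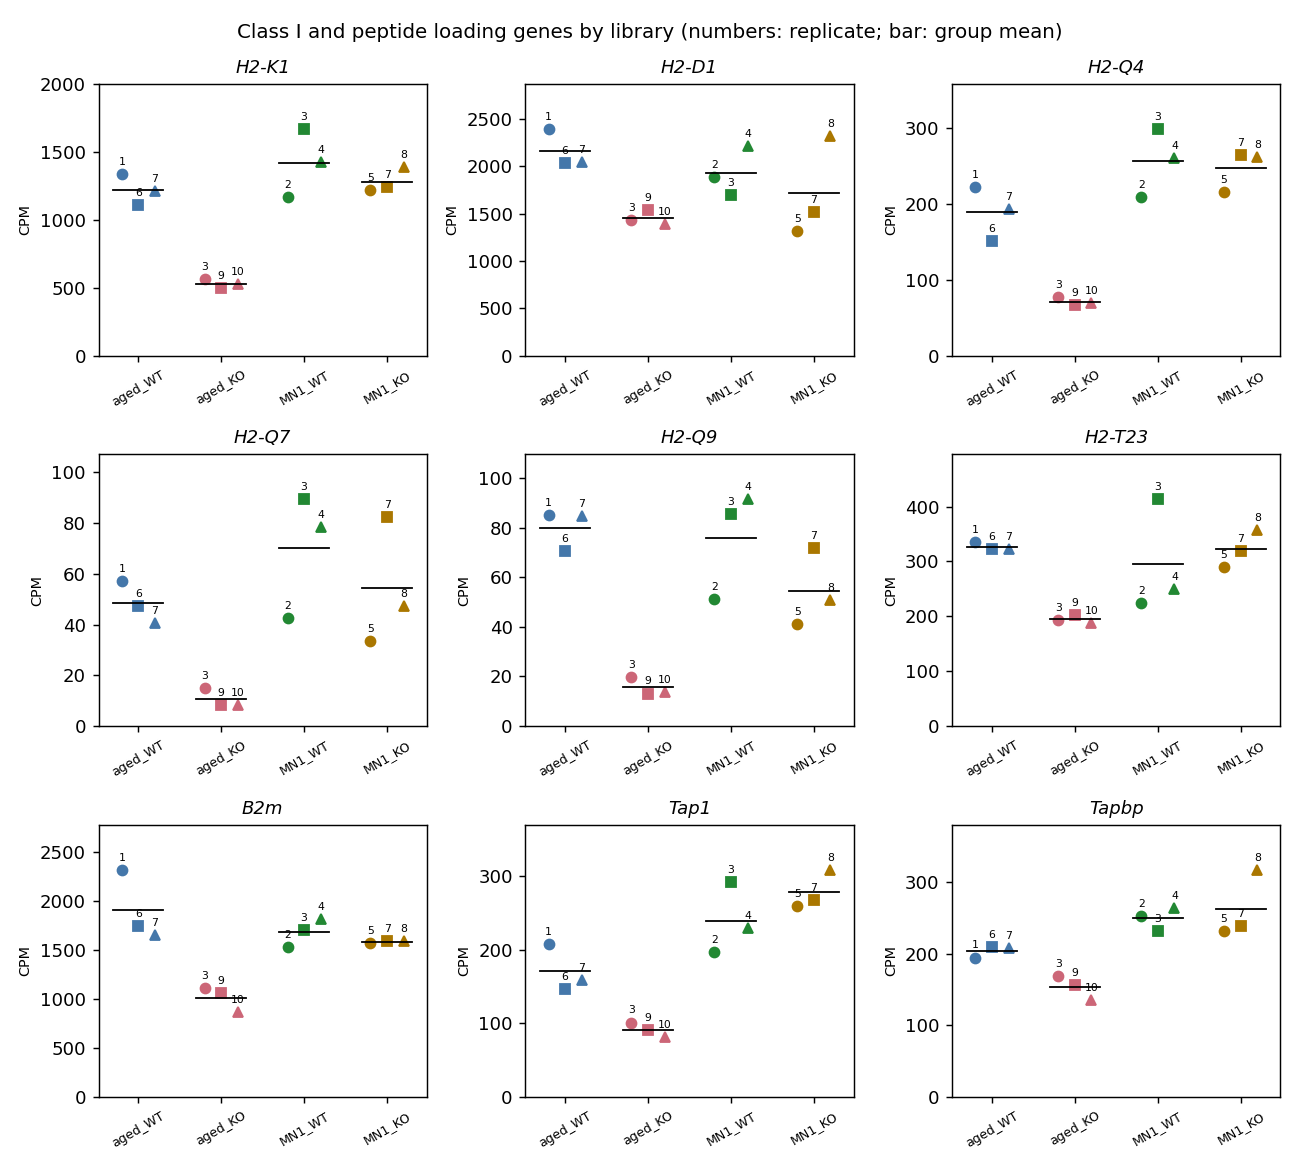
CPM of the 9 detected genes in each of the 12 libraries (y axis, CPM from 0; x axis, group; numbers give the replicate and bars the group mean of 3 libraries). For H2-K1 the 3 aged_KO libraries lie between 494 and 566 CPM and the 9 others at or above 1110 CPM, while for H2-D1 the MN1_KO libraries at 1319 and 1516 CPM lie within or below the range of aged_KO (1388 to 1538 CPM).

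In the MN1 experiment no difference between knockout and wild type was detected for any member. Of the 9 tested, 0 passed, the smallest adjusted p being 0.692 for H2-Q9, and 0 reached an unadjusted p below 0.05. All 9 overlapped between MN1_WT and MN1_KO on the TMM scale, whereas 15.3% of all genes did not. The test called 0% of 13525 genes here, 1353 genes had an unadjusted p below 0.05, and DESeq2 called 565 genes and limma-trend 6, none of them a member. Hopx itself was 7.14-fold lower in MN1_KO without overlap between the groups and was not called either (-2.84 ± 0.38 SE, edgeR adjusted p = 0.129). The median log2 fold change of the members was -0.12.

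The MN1 groups were more variable than the aged ones, and the intervals are wide. The MN1_WT replicates 2, 3 and 4 held 1166, 1667 and 1423 CPM of H2-K1, and MN1_KO replicates 5, 7 and 8 held 1215, 1239 and 1386 CPM (log2 fold change -0.15, 95% interval -0.69 to 0.38). H2-D1 ran from 1319 and 1516 CPM in MN1_KO replicates 5 and 7 to 2321 CPM in replicate 8, a spread within the group that took in the whole range of MN1_WT (1887, 1694 and 2210 CPM). The estimate was -0.17, with an interval from -1.03 to 0.68. H2-Q4, at 210, 299 and 261 CPM in MN1_WT and 216, 265 and 262 CPM in MN1_KO, had the estimate nearest to 0 (-0.06, interval -0.58 to 0.47).

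H2-Q9 was at 51.0, 85.5 and 91.3 CPM in MN1_WT and at 41.1, 71.6 and 50.8 CPM in MN1_KO (-0.49, interval -1.26 to 0.27). H2-Q7 was at 42.6, 89.3 and 78.2 CPM against 33.5, 82.2 and 47.3 CPM (-0.37, interval -1.35 to 0.61). Both genes had a low library in each group, MN1_WT replicate 2 and MN1_KO replicate 5. H2-T23 was at 223, 413 and 250 CPM in MN1_WT, where replicate 3 stood high, and at 290.3, 320 and 357 CPM in MN1_KO (0.15, interval -0.47 to 0.76). B2m varied little, at 1532, 1708 and 1819 CPM in MN1_WT and 1575, 1592 and 1587 CPM in MN1_KO (-0.12, interval -0.62 to 0.39). Tap1 was at 196, 293 and 230 CPM against 260, 268 and 308 CPM (0.22, interval -0.30 to 0.74), and Tapbp at 253, 231 and 264 CPM against 232, 238 and 317 CPM (0.06, interval -0.58 to 0.70). Without MN1_WT replicates 2 and 4, which leaves 1 wild-type library that is assumed to vary like the knockout group, edgeR called 0 members and 0 of 14172 genes tested, and the members' estimates ran from -0.55 for H2-Q7 to 0.36 for Tapbp.

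**Figure D2:**
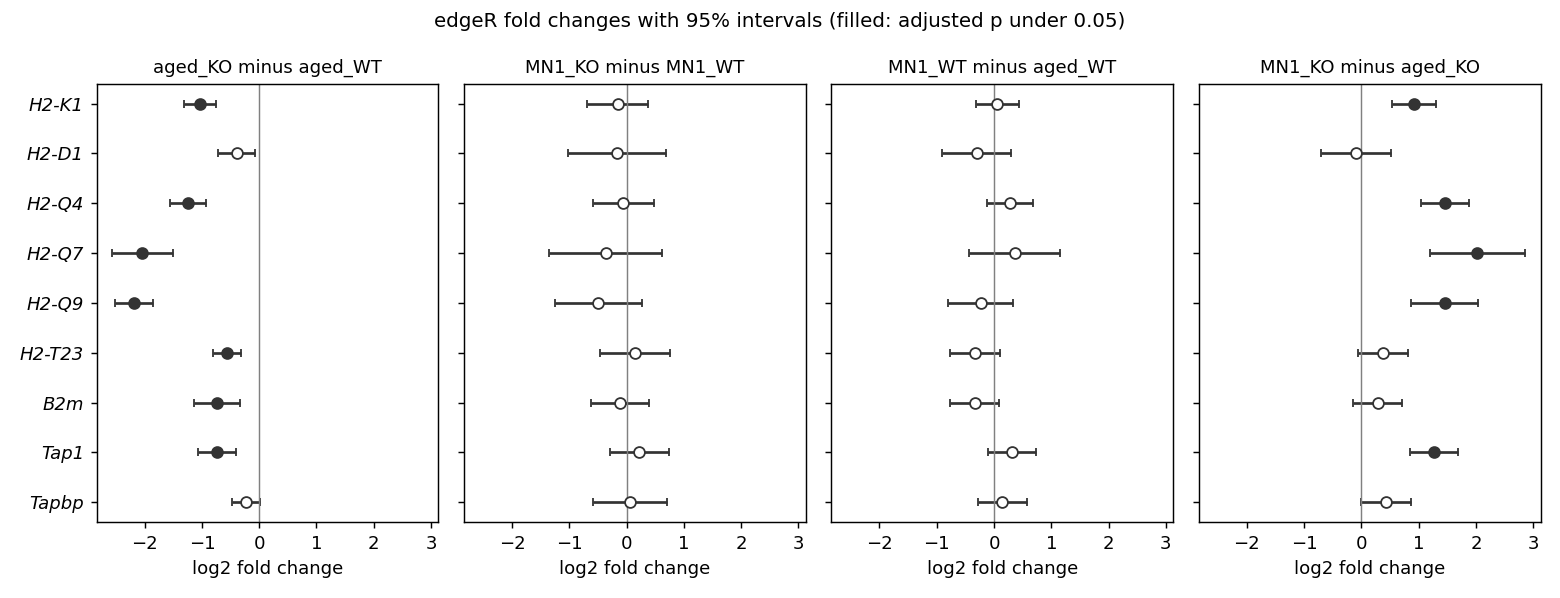
Log2 fold changes of the 9 tested genes with 95% intervals from edgeR in 4 comparisons (x axis, log2 fold change; one row per gene; filled points have an adjusted p below 0.05). In aged_KO minus aged_WT, 7 points are filled and lie left of 0; in MN1_KO minus MN1_WT, all 9 intervals include 0.

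The difference between the knockout effects was tested directly, as the MN1 effect minus the aged effect in a fit of all 12 libraries. Its estimate was above 0 for all 9 members, and it passed for 2, H2-Q4 (1.18 ± 0.26 SE, edgeR adjusted p = 0.04) and H2-Q9 (1.69 ± 0.37 SE, edgeR adjusted p = 0.0386). The test called 3.32% of 13937 genes, 1.41% in that direction, with 196 higher and 267 lower on the TMM scale and 345 and 219 with library totals. H2-Q7 (1.66 ± 0.52 SE, edgeR adjusted p = 0.0968), Tap1 (0.95 ± 0.27 SE, 0.0755) and H2-K1 (0.87 ± 0.24 SE, 0.0728) missed the threshold, and H2-D1 (0.21 ± 0.39 SE, 0.782) and Tapbp (0.28 ± 0.28 SE, 0.571) had the smallest estimates. For H2-T23 the difference was 0.70 ± 0.28 SE (edgeR adjusted p = 0.173) and for B2m 0.62 ± 0.27 SE (0.217). Outside the members, 62 genes of the class I pathway list described below were tested, and 2 passed, a share near that of all genes. These were the class I genes H2-T10 (1.43 ± 0.28 SE, edgeR adjusted p = 0.0249) and H2-T22 (1.02 ± 0.23 SE, 0.0429). Of 10 class II genes used for comparison, 3 passed in the same direction.

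The calls of the members, of H2-T10 and of H2-T22 did not hold under every setting. The number of members that passed was 6 without MN1_WT replicate 3. It was 0 without any single aged library, without MN1_WT replicate 2 or 4, and without MN1_KO replicate 7. Without MN1_WT replicates 2 and 4 together it was 0, with H2-Q4 at 1.06 (adjusted p = 0.287) and H2-Q9 at 1.63 (adjusted p = 0.174). H2-T10 (1.09 ± 0.32 SE, edgeR adjusted p = 0.224) and H2-T22 (0.87 ± 0.30 SE, 0.311) did not pass without them either, in a fit chosen after the data were seen. The sizes moved less than the calls: over all alternatives the difference ran from 1.02 to 1.37 for H2-Q4 and from 1.45 to 1.88 for H2-Q9, with adjusted p from 0.00179 to 0.287 and from 0.00163 to 0.174.

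In knockout marrow, 5 of 9 class I members were higher with MN1 than without it, and the most abundant, B2m and H2-D1, did not pass. In MN1_KO against aged_KO the 5 rose as follows: H2-Q7 by 4.07-fold (log2 fold change 2.02 ± 0.38 SE, edgeR adjusted p = 0.00423), H2-Q4 by 2.74-fold (1.45 ± 0.19 SE, 0.00113), H2-Q9 by 2.74-fold (1.46 ± 0.27 SE, 0.00395), Tap1 by 2.40-fold (1.26 ± 0.19 SE, 0.00198) and H2-K1 by 1.89-fold (0.92 ± 0.17 SE, 0.00424). The comparison called 37.9% of 13937 genes, 21.1% higher and 16.8% lower. The same 5 genes were higher in every MN1_KO library than in any aged_KO library on the TMM scale, as were 27.7% of all genes. Tapbp (0.43 ± 0.20 SE, edgeR adjusted p = 0.102), H2-T23 (0.37 ± 0.20 SE, 0.149), B2m (0.28 ± 0.19 SE, 0.26) and H2-D1 (-0.10 ± 0.28 SE, 0.799) did not pass. With libraries scaled by their totals, which moved the median of all genes from 0.08 to 0.46, 8 members passed, H2-D1 changed sign (0.24), and the calls over all genes went from 2936 higher and 2345 lower to 5350 and 1358. This comparison uses the same aged_KO libraries as the knockout effect in aged marrow, and age, table and MN1 status cannot be told apart in it. Cell type markers moved in it too. T cell markers rose in 6 of 8 (18.2 to 28.4 CPM summed in aged_KO, 70.3 to 85.5 CPM in MN1_KO) and natural killer markers in 2 of 6. Neutrophil markers fell in 7 of 10 (69990 to 79860 CPM against 16010 to 51940 CPM) and plasma cell markers in 3 of 6. Of 6 dendritic cell markers 2 rose and 1 fell, and their sum was 57.4 to 97.4 CPM in aged_KO and 219 to 686 CPM in MN1_KO. The markers differed, with 4 positive estimates and 2 negative ones. By group mean on the TMM scale Flt3 rose most, from 17.4 CPM in aged_KO to 285 CPM in MN1_KO. Siglech, the marker that fell, went from 16.97 to 0.668 CPM. The part of these shifts in the members' levels was not tested.

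Between the wild-type groups no member passed. In MN1_WT against aged_WT the log2 fold changes ran from -0.33 for B2m and H2-T23 to 0.36 for H2-Q7, the smallest adjusted p was 0.306, and 0 members reached an unadjusted p below 0.05. The test called 3.58% of 13937 genes, 140 higher and 359 lower, or 169 and 255 with library totals. All 9 members overlapped between these groups on the TMM scale, while 37.9% of genes did not. Without MN1_WT replicates 2 and 4, 0 members passed again, H2-D1 being lowest at -0.65 and H2-Q7 highest at 0.58.

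By group mean of CPM, aged_KO was the lowest of the 4 groups for all 9 detected members. For 8 of them, all but H2-D1, every aged_KO library lay below each of the 9 others. On the TMM scale aged_KO was lowest for 8 of 9, with H2-D1 lower in MN1_KO (1583 CPM) than in aged_KO (1690 CPM), and its libraries lay below all others for 5 of 9 (H2-K1, H2-Q4, H2-Q7, H2-Q9 and Tap1). Among the other 3 groups, neighbours in the order overlapped for these 5 genes on that scale.

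Ratios between members were compared within each library, and none of the 6 tests passed after adjustment. The ratio of H2-K1 to H2-D1 TPM within a library does not depend on how libraries are scaled. It was 0.592, 0.578 and 0.626 in aged_WT and 0.417, 0.340 and 0.402 in aged_KO, so the aged groups did not overlap (log2 difference -0.64). An exact two-sided permutation test of 3 against 3 libraries gave p = 0.1, the smallest this design allows, and 0.3 after adjustment over the 6 ratio tests. The Qa-2 genes H2-Q6, H2-Q7 and H2-Q9 summed to 0.0479, 0.0470 and 0.0472 of the H2-K1 and H2-D1 sum in aged_WT and to 0.0219, 0.0131 and 0.0143 in aged_KO (log2 difference -1.56, exact permutation p = 0.1, adjusted 0.3). B2m to the H2-K1 and H2-D1 sum was 1.29, 1.16 and 1.06 in aged_WT and 1.16, 1.10 and 0.950 in aged_KO, which overlapped (exact permutation p = 0.4, adjusted 0.8). This ratio compares the light chain with its main partners, and its difference was -0.13 on the log2 scale.

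In the MN1 experiment all 3 ratios overlapped between genotypes, with exact permutation p of 1, 0.7 and 0.7 for H2-K1 to H2-D1, the Qa-2 share and B2m. Without MN1_WT replicates 2 and 4, an alternative chosen after the data were seen that leaves 1 wild-type library and no test, the log2 differences were -0.36, -0.58 and 0.07. The H2-K1 to H2-D1 ratio was 0.654, 1.04 and 0.681 in MN1_WT replicates 2, 3 and 4 and 0.974, 0.865 and 0.632 in MN1_KO replicates 5, 7 and 8. MN1_WT replicate 3 and MN1_KO replicates 5 and 7, singled out after these values were seen, had the highest ratios of the 12 libraries. They were also the libraries with the most Mn1, at 36.4, 47.3 and 46.3 CPM.

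**Figure D3:**
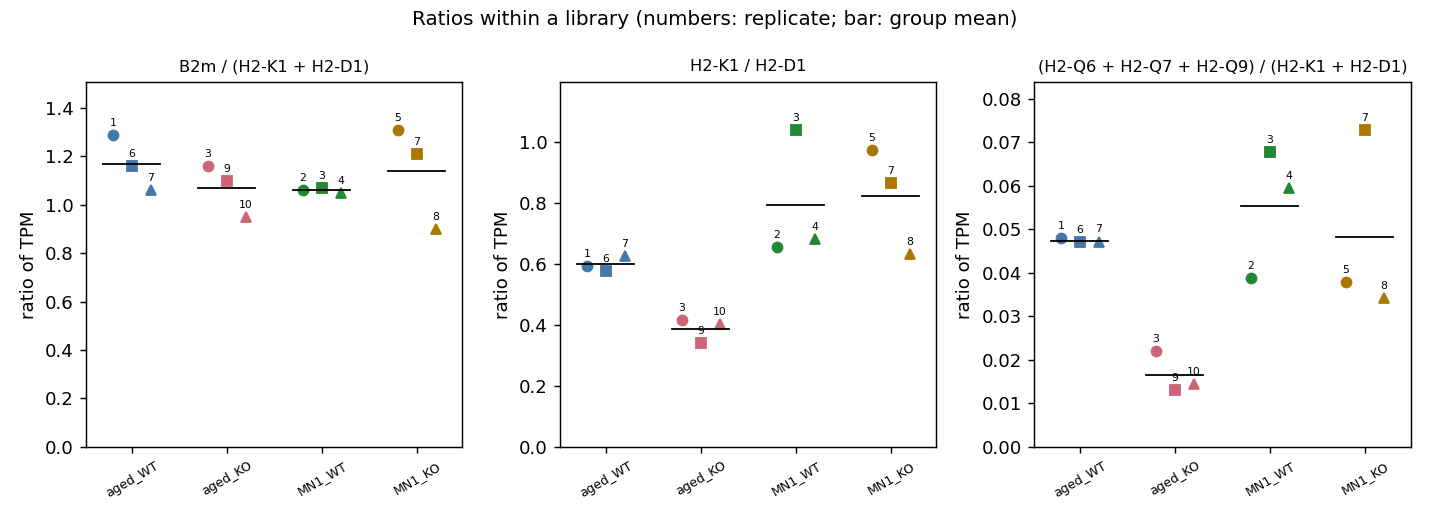
Ratios of TPM within each library for B2m to H2-K1 plus H2-D1, H2-K1 to H2-D1, and the Qa-2 genes to H2-K1 plus H2-D1 (y axes, ratio from 0; x axis, group; numbers give the replicate and bars the group mean of 3). The aged_KO libraries are lowest in the H2-K1 to H2-D1 panel (0.340 to 0.417) and in the Qa-2 panel (0.0131 to 0.0219).

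The other genes of the class I pathway were drawn from a list of 67 by role, of which 66 were in the tables and 61 were tested in the aged comparison. In aged_KO against aged_WT, 25 fell and 4 rose, with a median log2 fold change of -0.39. Read against the 31.4% of all genes that were called, the share of this list was 29 of 61. The roles were uneven. The receptor list gave 10 of the 25 that fell and 2 of the 4 that rose, from 15 tested. Of 24 regulators, 4 fell and none rose. Cd8a, Cd8b1 and Klrd1 on the receptor list are also on the T cell or natural killer marker lists below. The immunoproteasome, which cuts proteins into peptides that suit class I, fell in all 5 of its listed genes (median -0.54): Psmb10 by 0.65, Psmb8 by 0.58, Psmb9 by 0.54, Psme1 by 0.46 and Psme2 by 0.44 on the log2 scale. Their summed level was 642 to 685 CPM in aged_WT and 384 to 439 CPM in aged_KO.

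Of 8 loading and trimming genes tested, 3 were called, a share near the 31.4% of all genes. Among them, Tapbpl, which encodes the peptide editor TAPBPR, fell (-0.39 ± 0.10 SE, edgeR adjusted p = 0.0199). The chaperone genes Calr (0.45 ± 0.13 SE, edgeR adjusted p = 0.0275) and Pdia3 (0.38 ± 0.12 SE, 0.0319) rose. Tap2, the partner of Tap1 in the peptide transporter, was at -0.02 ± 0.10 SE (edgeR adjusted p = 0.904), while Tap1 fell by 0.74.

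Among 24 regulators 4 fell and none rose, where 15.8% of all genes fell, so their share that fell was near the background. Irf8, a transcription factor of monocytes, dendritic cells and B cells, fell by 1.43 (± 0.16 SE, edgeR adjusted p = 0.000677). Nlrc5, the class I coactivator, fell by 1.00 (± 0.22 SE, edgeR adjusted p = 0.0131). Socs1, a feedback inhibitor of cytokine signalling, fell by 0.78 (adjusted p = 0.0321) and Rfx5 by 0.46 (adjusted p = 0.0411). Irf9 (-0.55 ± 0.19 SE, edgeR adjusted p = 0.0607) and Irf1 (-0.41 ± 0.16 SE, 0.0887), which act in interferon responses, did not pass, nor did Rela (0.01) or Nfkb1 (0.13).

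Of the other class I and class I-like genes, 5 of 9 fell and none rose, where 15.8% of all genes fell and 15.6% rose. H2-T10 fell by 1.45 (± 0.15 SE, edgeR adjusted p = 0.000492) and H2-T22 by 1.17 (± 0.14 SE, 0.000876). Both encode ligands of gamma delta T cells, and both are close in sequence to each other. Fcgrt, the neonatal Fc receptor, fell by 1.56, H2-M3, which presents formylated peptides, by 1.11, and Cd1d1, which presents lipids, by 0.47. H2-Ke6, a neighbour in the same chromosomal region that is not a class I gene, was at -0.24 ± 0.13 SE (edgeR adjusted p = 0.197).

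Of 15 genes tested on the receptor list, 10 fell and 2 rose, where 15.8% of all genes fell and 15.6% rose. Cd8b1 fell by 2.54 and Cd8a by 1.83, and Klrd1, which encodes the CD94 chain of the Qa-1 receptor, fell by 2.00. Pirb (1.13 ± 0.15 SE, edgeR adjusted p = 0.0011) and Lilrb4a (1.23 ± 0.16 SE, 0.000964), inhibitory receptors of myeloid cells, rose. The class II list, used for comparison, fell in 10 of 10 genes with a median of -2.57, and its summed level was 1008 to 3463 CPM in aged_WT and 229 to 343 CPM in aged_KO.

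**Figure D4:**
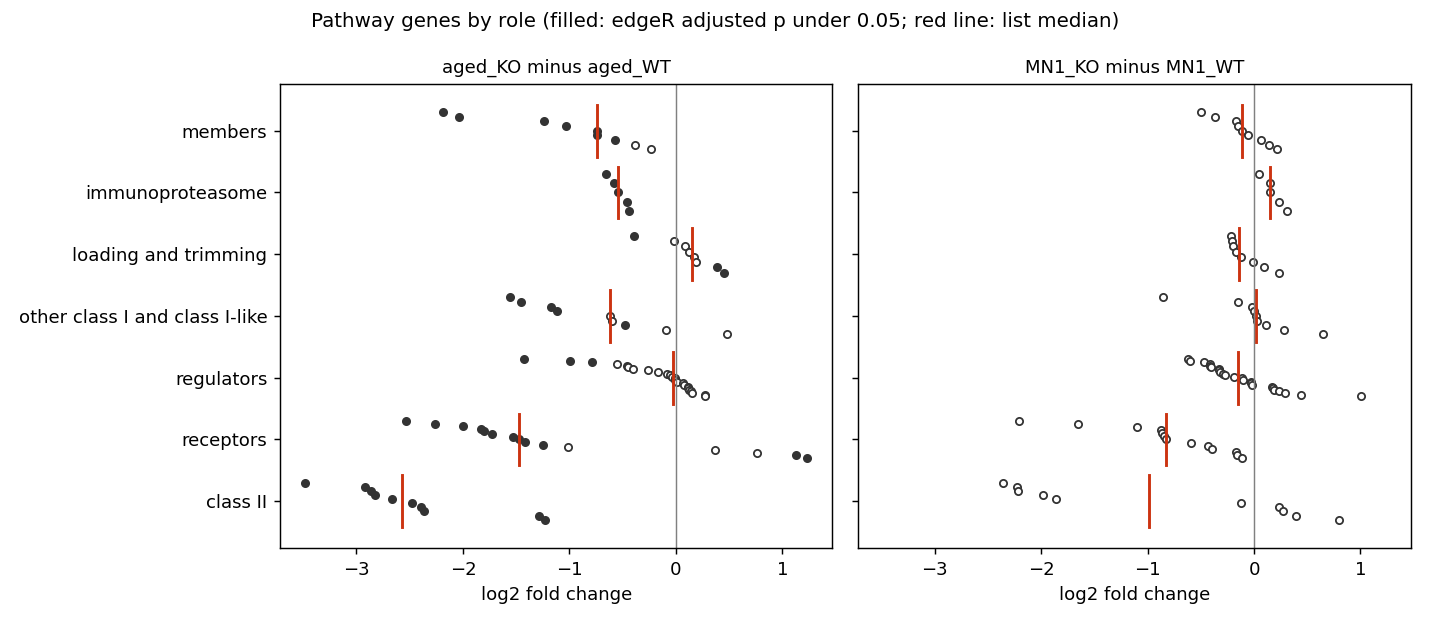
Log2 fold changes of the class I genes described here (top row) and of the other pathway genes by role, with class II for comparison, in the aged (left) and the MN1 (right) experiment (x axis, log2 fold change; each point a gene; filled, edgeR adjusted p below 0.05; red line, median of the row). All 5 immunoproteasome genes and all 10 class II genes are filled and left of 0 on the left side, and no point is filled on the right.

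In the MN1 comparison of knockout with wild type, 0 of 59 pathway genes passed, and 0 passed without MN1_WT replicates 2 and 4. Those with the smallest p were Ifngr1, a chain of the interferon-gamma receptor (1.00 ± 0.18 SE, edgeR adjusted p = 0.17), Cd8b1 (-2.21 ± 0.52 SE, 0.243) and Cd8a (-1.66 ± 0.42 SE, 0.274). Immunoproteasome genes summed to 676 to 717 CPM in MN1_WT, while in MN1_KO they reached 717 to 916 CPM, and in MN1_KO against aged_KO 3 of its 5 genes rose, beside 21.1% of all genes.

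Markers of several cell types moved with the class I genes in aged marrow, where 31.4% of all genes were called, 15.8% lower. All 10 B cell markers fell in aged_KO, and their summed level was 452 to 1050 CPM in aged_WT and 24.1 to 37.5 CPM in aged_KO. T cell markers fell in 8 of 8 (83.9 to 140 CPM against 18.2 to 28.4 CPM), natural killer markers in 6 of 6 (41.4 to 74.2 CPM against 10.5 to 18.4 CPM) and dendritic cell markers in 5 of 6 (247 to 277 CPM against 57.4 to 97.4 CPM). Plasma cell markers fell in 5 of 6, erythroid markers in 6 of 8, megakaryocyte markers in 5 of 5, and monocyte and macrophage markers in 3 of 8. Endothelial markers fell in 1 of 5 and stromal markers in 0 of 5, and none of either list rose. Neutrophil markers rose in 8 of 10, with a sum of 50890 to 64710 CPM in aged_WT and 69990 to 79860 CPM in aged_KO. No listed marker was at 0 in a whole group. The part of these shifts in the lower class I levels was not tested.

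B cell marker sums and class I levels are given side by side for the MN1 groups. In MN1_KO the B cell marker sum was 33.3 to 46.7 CPM, near that of aged_KO, and H2-K1 stood at 1215 to 1386 CPM, near aged_WT. The members differed in this. On the TMM scale H2-K1 averaged 1160 CPM in MN1_KO, 613 CPM in aged_KO and 1263 CPM in aged_WT. In the same order H2-D1 averaged 1583, 1690 and 2234 CPM, and B2m 1429, 1175 and 1979 CPM. MN1_WT replicate 3 had a B cell sum of 50.4 CPM, against 370 and 248 CPM in replicates 2 and 4. Its H2-K1 was the highest of the 12 libraries before TMM scaling, at 1667 CPM. On the TMM scale the highest H2-K1 was in aged_WT (1414 CPM), and MN1_WT reached 1406 CPM. MN1_WT replicate 3 also had the highest dendritic cell marker sum of the 12, at 866 CPM, against 123 and 89.2 CPM in replicates 2 and 4. The markers on that list differed. On the TMM scale Flt3 ran from 4.43 to 599 CPM across MN1_WT, and Siglech from 1.18 to 10.6 CPM. In MN1_WT against aged_WT, 2 of the 6 dendritic cell markers had positive estimates and 4 negative ones. Natural killer markers summed to 10.5 to 18.4 CPM in aged_KO, 22.8 to 40.4 CPM in MN1_KO and 29.3 to 44.5 CPM in MN1_WT. The part of these cell types in the class I levels was not tested. Class II genes summed to 506 to 1099 CPM in MN1_WT, while in MN1_KO they reached 300.1 to 378 CPM. In MN1_KO against aged_KO 4 of the 10 rose, where 21.1% of all genes rose, and 0 were called lower. The other 6 estimates were negative, and the median log2 fold change of the list was -0.34. Cd74, among those 6, averaged 128 CPM in aged_KO and 60.7 CPM in MN1_KO on the TMM scale. The lowest neutrophil marker sum in MN1_KO was that of replicate 5 and the highest that of replicate 8.

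**Figure D5:**
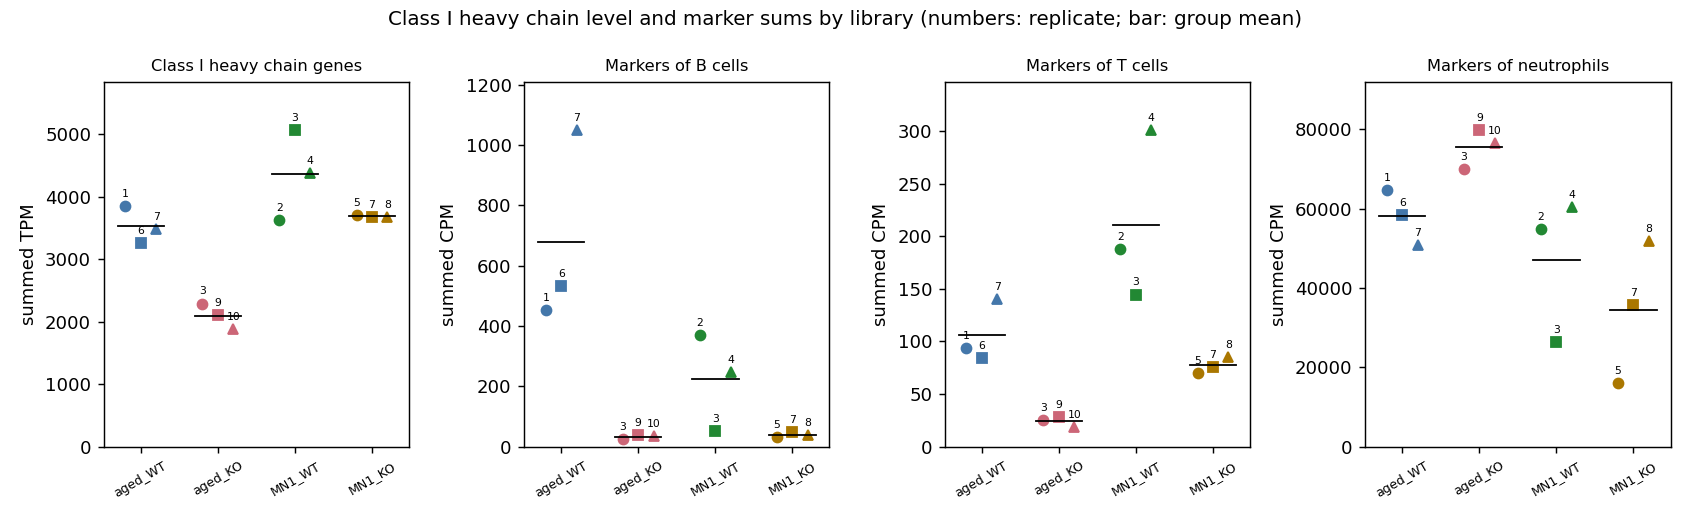
Summed TPM of the class I heavy chain genes and summed CPM of B cell, T cell and neutrophil markers in each library (y axes from 0; x axis, group; numbers give the replicate and bars the group mean of 3). The MN1_KO libraries lie at 33.3 to 46.7 CPM of B cell markers, beside the aged_KO libraries at 24.1 to 37.5 CPM, and at 3678 to 3706 TPM of heavy chain genes, above the aged_KO libraries at 1880 to 2292 TPM. These sums are without TMM scaling. On the TMM scale H2-K1 averaged 1160 CPM in MN1_KO and 613 CPM in aged_KO. H2-D1, alone of the detected heavy chain genes, averaged lower in MN1_KO (1583 CPM) than in aged_KO (1690 CPM).

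Across the 12 libraries the members varied together to unequal degrees. Pearson's r of log2 CPM over the 36 pairs of members ran from 0.083 for Tap1 and H2-D1 to 0.969 for H2-Q4 and H2-K1, with a median of 0.669. H2-Q4, H2-Q7 and H2-Q9 were each at 0.937 or above with H2-K1, while H2-D1 reached 0.342 with H2-K1. Of 13105 genes searched, those most like the mean of the 9 standardised members were Epsti1 (r = 0.945), H2-T22 (0.933), Dysf (0.924), Eno3 (0.923), H2-T10 (0.922), Trib2 (0.910), H2-M3 (0.910) and H2-T9 (0.909). Within the 6 aged libraries r was 0.954 for Epsti1 and 0.985 for H2-T22 and H2-T10, and within the 6 MN1 libraries it was 0.892 for Epsti1, 0.675 for H2-T22 and 0.687 for H2-T10. The libraries share groups and depth, and H2-T22, H2-T10, H2-M3 and H2-T9 share class I sequence with the members, so these values are descriptions.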

How the data were processed

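Bone marrow RNA of 12 libraries, 3 in each of 4 groups, was sequenced from stranded poly(A) libraries, per the labels' protocols. The authors deposited expected counts and TPM per gene symbol, which the submitters' processing notes link to RSEM 1.2.28, Bowtie2 2.3.4.3 and build mm10; the gene annotation is not given in the sources used here. A further 12 columns of values (FPKM) were not used. Expected counts were rounded, filtered with filterByExpr and TMM-scaled, and edgeR 4.0.16 was used for tests (robust quasi-likelihood F test, R 4.3.3). P-values were adjusted by Benjamini-Hochberg over all genes tested, at a threshold of 0.05. The method was tested on simulated data with the same spread set for all genes, which does not cover the wider spread between the MN1 libraries. Each knockout effect was fitted on its own 6 libraries, and the other contrasts on all 12. Values of single libraries are CPM without TMM scaling, taken from the expected counts. Levels between genes and ratios use the deposited TPM values. Ratios were tested with an exact two-sided permutation test. Alternatives were RLE scaling, library totals, 2 other filters, DESeq2 1.42.0, limma-trend (limma 3.58.1), summed Qa-2 counts, all 12 libraries, and libraries left out.

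The members, the pathway list and the marker lists were chosen with earlier results of these data known. Genes named are all members, Hopx and Mn1, the 3 pathway genes with the smallest p per direction in the aged comparison (in the MN1 comparison, the 3 smallest overall), and the 8 genes most like the members, without predicted genes. Other pathway genes, chosen after their values were seen, are named by role. Protein sequences were not used here; identities are of GENCODE vM21 coding sequence, and windows of its transcripts. Promoters are RefSeq's. The labels do not say whether libraries of a group came from separate mice, so p-values measure the spread between these libraries.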

Additional observations from a re-analysis of the deposited data

Results flagged for a closer look

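H2-Q4 and H2-Q9 stand out because the knockout effect differed between the experiments by a test of the difference itself. For H2-Q4 the MN1 effect minus the aged effect was 1.18 on the log2 scale (edgeR adjusted p = 0.04), and for H2-Q9 it was 1.69 (edgeR adjusted p = 0.0386). Both calls rest on few libraries: H2-Q4 lost its call under 11 of 20 alternatives and H2-Q9 under 10 of 19. The experiments differ in labelled age, deposited table and MN1 status at once, and these cannot be told apart.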

How the results depend on the processing

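No paired analysis was possible because the groups compared share no replicate numbers. In aged marrow 7 of 9 members passed without each library in turn, all genes called ranged from 2402 to 4599 (2402 without aged_WT replicate 7, 2560 without replicate 6) and pathway genes from 19 (without aged_KO replicate 3) to 30; with all 12 libraries setting the spread these were 818 and 12. For the MN1 effect no alternative called a member. DESeq2 called 565 genes and 3 of the pathway, limma-trend 6 genes, all 12 libraries 464 and 4, and leaving out a library 0 to 896 and 0 to 2, the highest without MN1_WT replicate 3. For the difference of effects, members that passed numbered 4 with library totals, 1 without a filter, 5 with DESeq2, 1 with the Qa-2 genes summed and 0 without MN1_WT replicates 2 and 4, and 0 to 6 without single libraries. All genes called there were 1671 with DESeq2, 40 without MN1_WT replicates 2 and 4, and 53 (without aged_WT replicate 7) to 3337 (without MN1_WT replicate 3) when single libraries were left out. MN1_WT against aged_WT called 1791 genes with DESeq2, 2465 without MN1_WT replicates 2 and 4, and 78 (without aged_WT replicate 6) to 397 without single libraries. MN1_KO against aged_KO called 8 members with library totals, 5 without each library in turn, and 2515 (without aged_KO replicate 9) to 7366 genes.

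Signs turned only for estimates that had not passed. In the MN1 effect they turned without MN1_WT replicates 2 and 4 (H2-D1 0.217, H2-T23 -0.185, B2m 0.053), without MN1_WT replicate 3 (Tapbp -0.074) or 4 (H2-Q4 0.022, B2m 0.003), and without MN1_KO replicate 5 (H2-D1 0.020, H2-Q4 0.068) or 8 (H2-T23 -0.036, Tapbp -0.210). H2-D1 became -0.183 in the difference without MN1_KO replicate 8, and 0.242 with library totals and 0.104 without MN1_KO replicate 5 in MN1_KO against aged_KO. MN1_WT against aged_WT turned for H2-T23 (0.037) and Tapbp (-0.118) without MN1_WT replicates 2 and 4, and for H2-K1 (-0.005) without aged_WT replicate 6. The other ends of the ranges without single libraries were H2-D1 -0.573, H2-Q4 -0.192, B2m -0.211, H2-T23 0.341 and Tapbp 0.182 in the MN1 effect, H2-D1 0.402 in the difference and -0.485 in MN1_KO against aged_KO, and H2-K1 0.158 in MN1_WT against aged_WT. Without single libraries the aged log2 ratio differences ran from -0.694 to -0.546 for H2-K1 to H2-D1, from -1.789 to -1.421 for the Qa-2 genes and from -0.202 to -0.048 for B2m. In the MN1 experiment they ran from -0.067 to 0.280 (negative without MN1_KO replicate 5, -0.067, MN1_WT replicate 2, -0.056, or 4, -0.026), from -0.581 to -0.037, and from -0.023 (without MN1_KO replicate 5) to 0.247; without MN1_WT replicates 2 and 4, chosen after the data were seen, H2-K1 to H2-D1 turned to -0.362. The causes were not tested. H2-Q7 and H2-Q9 had the lowest CPM of the 9 detected members in each group, and so the fewest counts behind their values.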
